A study of Mus musculus with 4 samples.

Results

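The RNA of 10 autophagy genes was compared in the livers of wild-type (WT) mice and mice lacking *Usp21*, which encodes a ubiquitin-specific protease. The genes, *Ulk1*, *Becn1*, *Atg5*, *Atg7*, *Map1lc3a*, *Map1lc3b*, *Gabarapl1*, *Sqstm1*, *Bnip3* and *Tfeb*, were taken by name to represent the steps of the pathway, and all 10 were found among the 35739 genes of the deposited table of TPM (transcript abundance scaled to transcript length and to a fixed total per library). All 10 also had a mean of at least 1 TPM and so were among the 9581 genes tested. RNA-seq had been carried out on whole liver, with 1 library per mouse, from WT replicates 2 and 3 and *Usp21* KO replicates 1 and 3. The KO allele is constitutive: Cre-loxP recombination had removed exons 3 and 4, which shifts the reading frame to a stop in exon 5. It was made in 129/Sv ES cells and bred with B6 mice, so the littermates compared, aged 10 to 11 weeks and fed a normal diet, are of mixed B6 × 129/Sv background. The time of day and the feeding state at collection are not given in the sources used here.

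Autophagy delivers cell material to the lysosome. The ULK kinase complex starts it, the Beclin 1 and VPS34 lipid kinase complex marks the membrane, and a ubiquitin-like conjugation system attaches small ATG8 proteins (the LC3 and GABARAP families) to the growing autophagosome, where cargo receptors such as p62 bind. The liver is known for strong autophagy during fasting, when TFEB and PPAR-alpha act on many of its genes, and several of these genes cycle over the day in mouse liver.

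*Sqstm1* and *Gabarapl1* had the clearest differences between the genotypes, both higher in *Usp21* KO liver, but no member passed the adjusted threshold. The *Sqstm1* mean was 1.44 times and the *Gabarapl1* mean 1.53 times that of WT. *Map1lc3b* was the only other member whose KO libraries both lay above both WT libraries, a placing that 34.4% of all tested genes shared. The genes of initiation, nucleation and conjugation, *Map1lc3a*, the mitophagy receptor *Bnip3* and the regulator *Tfeb* had overlapping groups in TPM as deposited. The separation of *Map1lc3b* was lost after either scaling described below. After median ratio scaling, *Becn1*, *Atg5*, *Bnip3* and *Tfeb* were lower in KO liver without overlap, as were 23.0% of all tested genes. The sequences just upstream of the 3 genes whose groups did not overlap as deposited are shown so that the promoters of the members described first can be compared. They come from the RefSeq promoter table of GRCm38.p6, begin up to 250 bases before the RefSeq start, stop before the first annotated base of the gene, and are written on the gene's strand with GC boxes (GGGCGG, either strand) in capitals.
*Gabarapl1*, chr6:129532942-129533159, plus strand: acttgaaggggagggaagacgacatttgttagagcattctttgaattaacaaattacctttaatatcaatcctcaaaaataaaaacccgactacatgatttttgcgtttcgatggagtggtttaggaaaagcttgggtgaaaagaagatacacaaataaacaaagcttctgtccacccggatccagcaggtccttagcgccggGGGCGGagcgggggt
*Sqstm1*, chr11:50210828-50210889, minus strand: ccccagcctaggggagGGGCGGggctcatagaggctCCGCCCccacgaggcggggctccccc
*Map1lc3b*, chr8:121590188-121590360, plus strand: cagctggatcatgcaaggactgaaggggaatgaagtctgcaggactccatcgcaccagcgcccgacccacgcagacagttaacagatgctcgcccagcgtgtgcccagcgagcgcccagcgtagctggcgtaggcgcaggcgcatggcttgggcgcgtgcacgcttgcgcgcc
The *Gabarapl1* window lies over exons of the noncoding antisense gene *1700101I11Rik*, and the *Sqstm1* window was stopped at 62 bases because the divergent gene *Mgat4b* begins there. The *Map1lc3b* window as printed holds none of the motifs searched. A GC box of *Map1lc3b* lies past the end of this window, 37 to 32 bases before the RefSeq start.

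The table has 10 promoters for 8 of the members, 3 of them for *Tfeb*, and none for *Becn1* and *Map1lc3a*. In the 250 bases before the start, a GC box (GGGCGG, both strands) was found in 9 of the 10 promoters, against 32.7% of all 32851 promoters. By gene this was 7 of the 8, all but *Atg7*. The E-box CACGTG holds the core letters read by both TFEB and the clock factors BMAL1 and CLOCK. It was found in 3 of the 10 promoters, those of *Atg5*, *Atg7* and *Bnip3*, against 6.02% of all promoters. These windows are shown because they are the only members with those letters, with the E-box in capitals.
*Atg5*, chr10:44268313-44268338, plus strand: cggagcgcttgcCACGTGgtcttggt
*Atg7*, chr6:114670952-114670981, plus strand: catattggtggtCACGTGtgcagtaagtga
*Bnip3*, chr7:138909597-138909626, minus strand: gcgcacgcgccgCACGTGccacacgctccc
The *Atg7* window belongs to a RefSeq start inside the gene, downstream of the first start in GENCODE. No member held the longer E-box TCACGTGA (0.785% of promoters), which contains CACGTG, the FOXO letters GTAAACA (3.17%), the D-box TTATGTAA (0.819%) or the antioxidant letters TGACNNNGC (10.2%), each on both strands, or TATAAA on the gene's strand (7.59%). The 3 genes with an E-box all had overlapping groups in TPM as deposited. After the median ratio scaling described below, *Atg5* and *Bnip3* were lower in KO liver without overlap, as were 23.0% of all tested genes. A match or its absence describes these letters in this window and was not taken as a binding site.

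In level, the members spanned a wide range. From highest to lowest WT mean the order was *Sqstm1*, *Gabarapl1*, *Bnip3*, *Map1lc3b*, *Map1lc3a*, *Becn1*, *Atg5*, *Atg7*, *Ulk1* and *Tfeb*, and 3 of the 4 libraries had exactly this order. In *Usp21* KO replicate 1, *Ulk1* was above *Atg7*. Over all 4 libraries, the ranges of neighbours overlapped only for *Sqstm1* and *Gabarapl1* and for *Atg7* and *Ulk1*, although *Sqstm1* was above *Gabarapl1* in every library. *Sqstm1* had a higher mean TPM than 96.4% of the tested genes, whereas *Tfeb* exceeded 18.4%. TPM is scaled to transcript length, so levels can be set side by side between genes, but it holds no record of read depth.

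**Figure D1:**
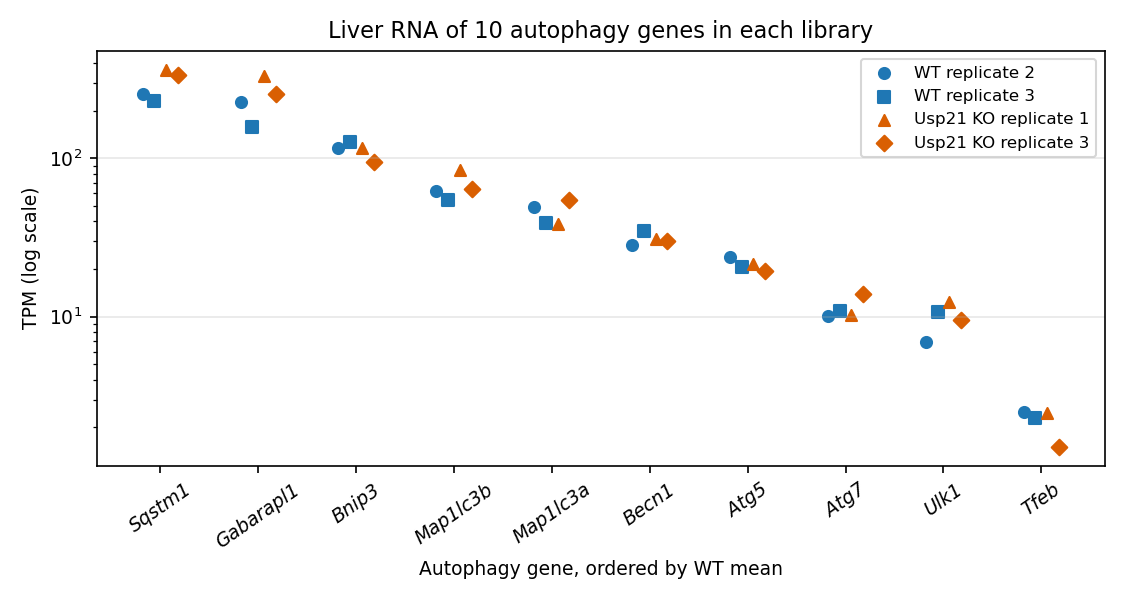
TPM on a log scale for the 10 autophagy genes, with 1 point per library, circles and squares for the WT libraries and triangles and diamonds for the *Usp21* KO libraries. Both KO points lie above both WT points for *Sqstm1*, *Gabarapl1* and *Map1lc3b*, and the points of the other 7 genes overlap.

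Before the members, the targeted gene was examined. *Usp21* was at 4.07 and 6.29 TPM in WT replicates 2 and 3 and at 1.64 and 2.93 TPM in *Usp21* KO replicates 1 and 3. The KO libraries were lower without overlap, at 0.441 of the WT mean, with a log2 fold change of -0.92 ± 0.33 (SE, limma, unadjusted p = 0.0336, adjusted p = 0.464). TPM is summed over the whole gene and does not single out the removed exons.

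With 2 libraries against 2, an exact permutation test cannot give a p below 0.333, so limma was used, which shares the spread between all genes, and its p-values measure the spread between these mice only. All fold changes are differences of log2(TPM + 1), KO minus WT, which understates the change of genes at low levels. The distribution was not centred: the median log2 fold change of all 9581 genes was 0.15, and it became 0.067 when libraries were scaled to their upper quartile and -0.014 when scaled by median ratios. A member's fold change less this median is therefore given beside the main ones.

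*Sqstm1* encodes p62, the receptor that links ubiquitin-tagged cargo to ATG8 proteins and is itself degraded by autophagy. Its gene is on the minus strand at chr11:50199366-50210827 (GRCm38). *Sqstm1* was at 252.8 and 231.5 TPM in WT and at 363.0 and 333.4 TPM in KO liver, or 242.2 ± 15.1 against 348.2 ± 20.9 (SD, n = 2 each). The lowest KO library was far above the highest WT library compared with the spread within either group. The log2 fold change was 0.52 ± 0.16 (SE, 95% interval 0.11 to 0.93, limma, unadjusted p = 0.0212, adjusted p = 0.464), or 0.37 above the median of all genes. It stayed between 0.46 and 0.59 with any 1 library left out and was 0.33 after median ratio scaling, where the limma p was 0.0744. In the second deposited table, of normalized gene counts, *Sqstm1* was one of the few members with reads, with 19 and 7 reads in WT and 21 and 16 in KO libraries, which overlap. Only 102898 to 148164 reads per library could be recovered from that table, and it lists at 0 in all libraries 428 of the 682 genes whose lowest TPM is 100 or more.

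*Gabarapl1* encodes a GABARAP-family ATG8 protein that coats autophagosomes. The gene is on the plus strand at chr6:129533160-129542346. *Gabarapl1* was at 226.4 and 158.2 TPM in WT and at 330.8 and 256.1 TPM in KO liver, or 192.3 ± 48.2 against 293.4 ± 52.9 (SD, n = 2 each). The groups did not overlap, but WT replicate 2 and KO replicate 3 were closer to each other than either was to its own replicate. The log2 fold change was 0.62 ± 0.24 (SE, 95% interval 0.010 to 1.23, limma, unadjusted p = 0.0473, adjusted p = 0.472), or 0.47 above the median of all genes. Leaving out WT replicate 3 brought it to 0.36, and leaving out WT replicate 2 to 0.88. After upper quartile and median ratio scaling it was 0.52 and 0.43, with limma p of 0.0809 and 0.111. In the count table *Gabarapl1* had 1 read in each KO library and none in WT, below the 3 reads that a count of 0 allows.

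*Map1lc3b* encodes LC3B, the ATG8 protein most used as an autophagosome marker. *Map1lc3b* was at 62.5 and 54.8 TPM in WT and at 84.6 and 63.6 TPM in KO liver. The groups were separated by about 1 TPM between WT replicate 2 and KO replicate 3, and they overlapped after either scaling. The log2 fold change was 0.32 ± 0.21 (SE, 95% interval -0.19 to 0.83, limma, unadjusted p = 0.174, adjusted p = 0.578). It was 0.12 without KO replicate 1, 0.52 without KO replicate 3 and 0.13 after median ratio scaling. Of its transcript sequence, 3.06% of the 31-base words occur in another tested gene, the highest share of any member, so some of its abundance could be shared in the quantification. The gene also overlaps the antisense gene *Zcchc14*, as *Gabarapl1* overlaps *1700101I11Rik*, *Sqstm1* overlaps *Mrnip*, *Becn1* overlaps *Cntd1* and *Bnip3* overlaps *Gm45507* and *Gm18258*. Overlapping genes on the same strand are annotated for *Map1lc3b*, *Gabarapl1*, *Atg5* and *Atg7*. The strand setting of the quantification is not given in the sources used here.

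*Map1lc3a* encodes LC3A, a close relative. *Map1lc3a* was at 49.5 and 39.2 TPM in WT and at 38.5 and 54.2 TPM in KO liver. Its lowest and highest libraries were both KO, and its log2 fold change of 0.052 ± 0.24 (SE) turned to -0.044 after upper quartile scaling and -0.14 after median ratio scaling. Its 95% interval, -0.54 to 0.64, leaves room for a difference of the size measured for *Sqstm1* in either direction.

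**Figure D2:**
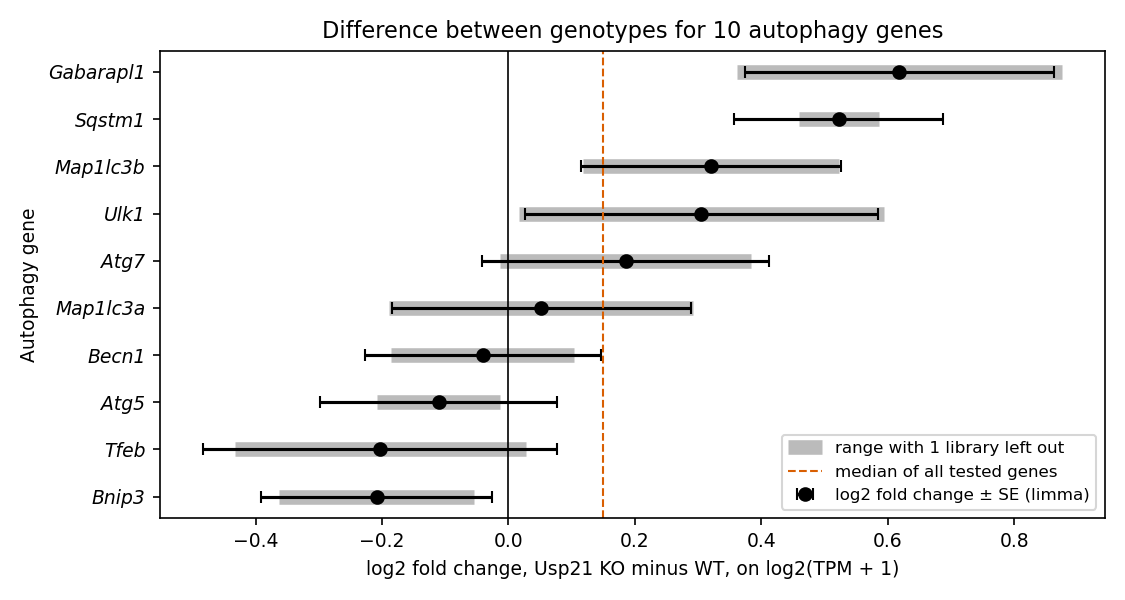
Log2 fold change of each autophagy gene (x axis, *Usp21* KO minus WT on log2(TPM + 1)), with points and bars for the limma estimate ± SE, grey bands for the range when 1 library is left out, and a dashed line at 0.15, the median of all tested genes. The grey bands of *Sqstm1* and *Gabarapl1* lie wholly above the dashed line, and those of *Atg7*, *Map1lc3a*, *Becn1* and *Tfeb* cross 0.

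*Ulk1* encodes the kinase that starts autophagosome formation and is held in check by mTORC1. *Ulk1* was at 6.87 and 10.8 TPM in WT and at 12.4 and 9.57 TPM in KO liver. The groups overlapped, with a log2 fold change of 0.31 ± 0.28 (SE, 95% interval -0.39 to 1.00), and leaving out WT replicate 2 brought it to 0.016.

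*Becn1* encodes Beclin 1 of the nucleating lipid kinase complex. *Becn1* was at 28.4 and 34.9 TPM in WT and at 31.04 and 30.2 TPM in KO liver. Both KO libraries lay between the WT libraries, and the log2 fold change was -0.040 ± 0.19 (SE, 95% interval -0.51 to 0.43). It was 0.10 without WT replicate 3.

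*Atg5* and *Atg7* encode conjugation enzymes, ATG5 as part of the complex that attaches ATG8 proteins to lipid and ATG7 as the E1-like enzyme. *Atg5* was at 23.7 and 20.6 TPM in WT and at 21.5 and 19.4 TPM in KO liver, with a log2 fold change of -0.11 ± 0.19 (SE, 95% interval -0.58 to 0.36). *Atg7* was at 10.04 and 10.8 TPM in WT and at 10.3 and 13.9 TPM in KO liver, with a log2 fold change of 0.19 ± 0.23 (SE, 95% interval -0.38 to 0.75). In TPM, KO replicate 3 was the high library for *Atg7*, and without it the value was -0.013. In the count table KO replicate 1 was the high one, with 71 reads against 30 in KO replicate 3 and 23 and 34 in WT, and the log2 fold change was 0.62 on CPM, 0.64 in edgeR and 0.61 in DESeq2, again with overlapping groups. Leaving out WT replicate 2 brought the *Atg5* value to -0.013.

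*Bnip3* encodes a receptor on the outer mitochondrial membrane that brings mitochondria to autophagosomes. *Bnip3* was at 116.2 and 126.9 TPM in WT and at 116.9 and 94.2 TPM in KO liver. The groups overlapped only through KO replicate 1, which was level with WT replicate 2. The log2 fold change was -0.21 ± 0.18 (SE, 95% interval -0.66 to 0.25, limma, unadjusted p = 0.301, adjusted p = 0.674), or -0.36 relative to the median of all genes. After median ratio scaling it was -0.40 with an unadjusted limma p of 0.0462, whereas leaving out KO replicate 3 brought it to -0.054.

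*Tfeb* encodes the transcription factor that drives lysosome and autophagy genes. *Tfeb* was at 2.48 and 2.30 TPM in WT and at 2.45 and 1.51 TPM in KO liver. KO replicate 3 was the low library, and without it the log2 fold change of -0.20 ± 0.28 (SE, 95% interval -0.90 to 0.49) became 0.027.

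As a group, then, 0 of the 10 members had an adjusted limma p under 0.05, against 0.0835% of all tested genes (8 genes). At an unadjusted limma p under 0.05, 2 members were higher in KO liver and 0 lower, against 8.45% and 2.04% of all genes. Without WT replicate 3, or without KO replicate 1, 0 members were higher at that threshold, and 1 was without either of the other libraries. Groups did not overlap for 3 members with KO higher and 0 with KO lower, against 34.4% and 10.9% of all genes. No member reached a 2-fold difference, which 3.68% of all genes did. The counts of members with p under 0.05 in edgeR and DESeq2 on the recovered reads were 0 and 0, with 2 members testable in each. The median log2 fold change of the members was 0.12, close to the 0.15 of all genes. Of the members 6 were above 0 and 4 below, against 6394 above and 3187 below of all genes. After median ratio scaling the non-overlapping members were *Sqstm1* and *Gabarapl1* with KO higher, and *Becn1*, *Atg5*, *Bnip3* and *Tfeb* with KO lower, against 20.8% and 23.0% of all genes after that scaling.

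ATG8 genes were also compared as shares of their own total, which do not depend on how libraries are scaled. The summed TPM of the 5 ATG8 genes was 662.5 and 586.9 in WT and 803.7 and 687.4 in KO liver. Both KO sums were higher as deposited, but the groups overlapped after upper quartile scaling (691.7 and 602.4 against 769.5 and 671.6) and median ratio scaling (705.5 and 623.4 against 705.3 and 677.5). *Gabarap* and *Gabarapl1* together made up most of it. *Gabarapl1* took 34.2% and 27.0% of the total in WT and 41.2% and 37.2% in KO liver, or 30.6% ± 5.10 against 39.2% ± 2.76 (SD, n = 2 each). *Gabarap*, its nearest relative in the family, took 41.7% and 49.3% in WT and 36.8% and 38.2% in KO liver. Neither set of shares overlapped between the genotypes. Shares of a library are parts of the same total, so those of *Gabarap* and *Gabarapl1* are not separate observations. The difference of 8.64 percentage points for *Gabarapl1* was not tested. An exact permutation test of 1 value in 2 against 2 libraries cannot go below 0.333. The *Gabarapl1* difference was 5.03 points without WT replicate 3. The ratio of *Gabarapl1* to *Gabarap* was 0.819 and 0.547 in WT and 1.12 and 0.976 in KO liver. *Gabarap* itself was at 276.5 and 289.5 TPM in WT and at 295.8 and 262.3 TPM in KO liver, with overlapping groups, and *Gabarapl2* was at 47.5 and 45.2 against 54.0 and 51.3 TPM. The shares of *Gabarapl2*, *Map1lc3a* and *Map1lc3b* overlapped between the genotypes.

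**Figure D3:**
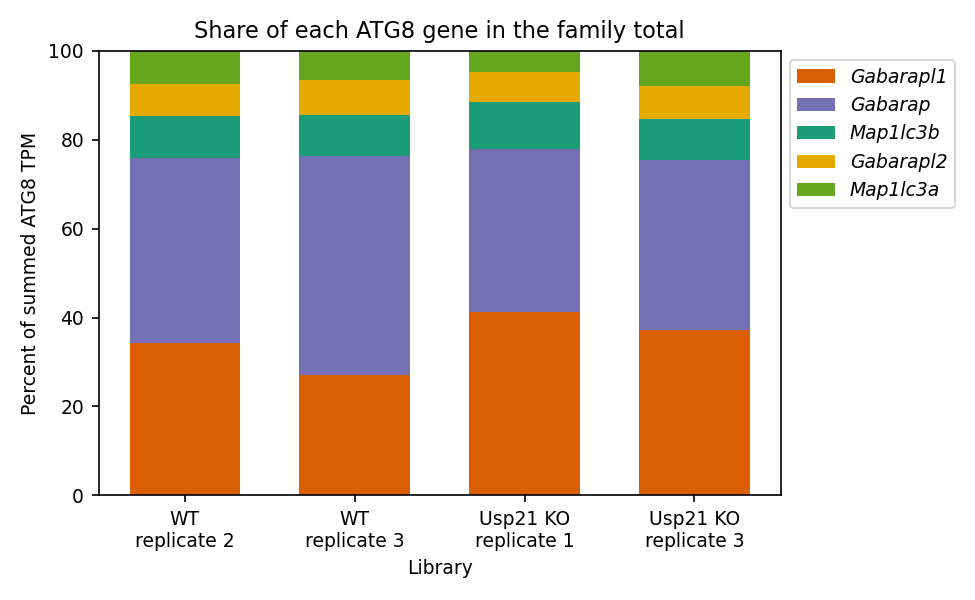
Stacked bars of the percent of summed ATG8 TPM (y axis, from 0 to 100%) taken by each of the 5 ATG8 genes in each library. The *Gabarapl1* segment is 34.2% and 27.0% in the WT libraries and 41.2% and 37.2% in the *Usp21* KO libraries, and the *Gabarap* segment is smaller in the KO libraries.

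The other genes of the pathway were read from 10 lists ordered by role, which held 114 genes with the members included, 112 of them tested. No gene of these lists had an adjusted limma p under 0.05, and the genes named from them have adjusted p of 0.458 or more. At an unadjusted p under 0.05, 12 genes were higher in KO liver and 2 lower, and the median log2 fold change was 0.078, below the 0.15 of all genes. This split depended on the scaling, with 6 higher and 3 lower after upper quartile scaling and 1 higher and 10 lower after median ratio scaling. With 1 library left out the number higher was 4 without WT replicate 2, 6 without WT replicate 3, 2 without KO replicate 1 and 11 without KO replicate 3. Over all tested genes the same split was 810 higher and 195 lower, or 8.45% and 2.04%. It was 547 and 309 after upper quartile scaling, and 404 and 491 after median ratio scaling.

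Cargo receptors held the most such genes, 4 of 16 higher and 0 lower, against 8.45% and 2.04% of all tested genes. The list median was 0.25. Beside *Sqstm1* the 4 higher genes were *Nbr1*, *Tax1bp1* and *Ncoa4*. These encode, in order, a p62-like receptor for ubiquitinated cargo, a receptor for ubiquitinated protein aggregates and the receptor for ferritin. *Nbr1* was at 28.4 and 29.3 TPM in WT and at 51.9 and 37.6 TPM in KO liver (log2 fold change 0.60 ± 0.21, SE). *Tax1bp1* was at 30.6 and 34.4 TPM in WT and at 52.2 and 45.9 TPM in KO liver (0.58 ± 0.18). *Ncoa4* was at 27.7 and 24.5 TPM in WT and at 41.4 and 36.4 TPM in KO liver (0.56 ± 0.18). None of these genes had overlapping groups. Of the 16 receptors, 8 had KO higher without overlap and 2 KO lower, against 34.4% and 10.9% of all tested genes. The unadjusted limma p of *Nbr1*, *Tax1bp1* and *Ncoa4* were 0.0328, 0.0188 and 0.0238, each with an adjusted p of 0.464. After median ratio scaling the p of all 4 receptors, *Sqstm1* included, was between 0.0560 and 0.0744, and the list median was 0.063. The ratio of *Sqstm1* to *Nbr1* was 8.90 and 7.91 in WT and 6.99 and 8.87 in KO liver.

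Upstream of the autophagosome, the ULK complex list had 1 of 5 genes past the unadjusted threshold, *Ulk2*, the paralog of *Ulk1*. Of all tested genes 8.45% were higher and 2.04% lower at that threshold. *Ulk2* was at 5.93 and 4.74 TPM in WT and at 9.31 and 9.03 TPM in KO liver (0.69 ± 0.22, limma, unadjusted p = 0.0229), with groups farther apart than those of *Ulk1*. Among 9 genes of phagophore growth, *Vmp1*, an endoplasmic reticulum protein needed for the growing membrane, was higher, at 47.2 and 49.8 against 68.6 and 66.7 TPM (0.47 ± 0.16, limma, unadjusted p = 0.0273). Of the 8 genes around *Becn1*, 0 passed, the greatest difference being 0.32 ± 0.22 for *Nrbf2*, a partner of the lipid kinase complex. In the conjugation list, 1 of 11 genes passed and it was lower: *Atg4d*, a protease that processes ATG8 proteins, was at 16.4 and 15.0 TPM in WT and at 10.1 and 5.27 TPM in KO liver (-0.995 ± 0.32, limma, unadjusted p = 0.0215). Downstream, 0 of 7 fusion genes passed, the greatest difference being 0.27 ± 0.22 for the SNARE gene *Snap29*.

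**Figure D4:**
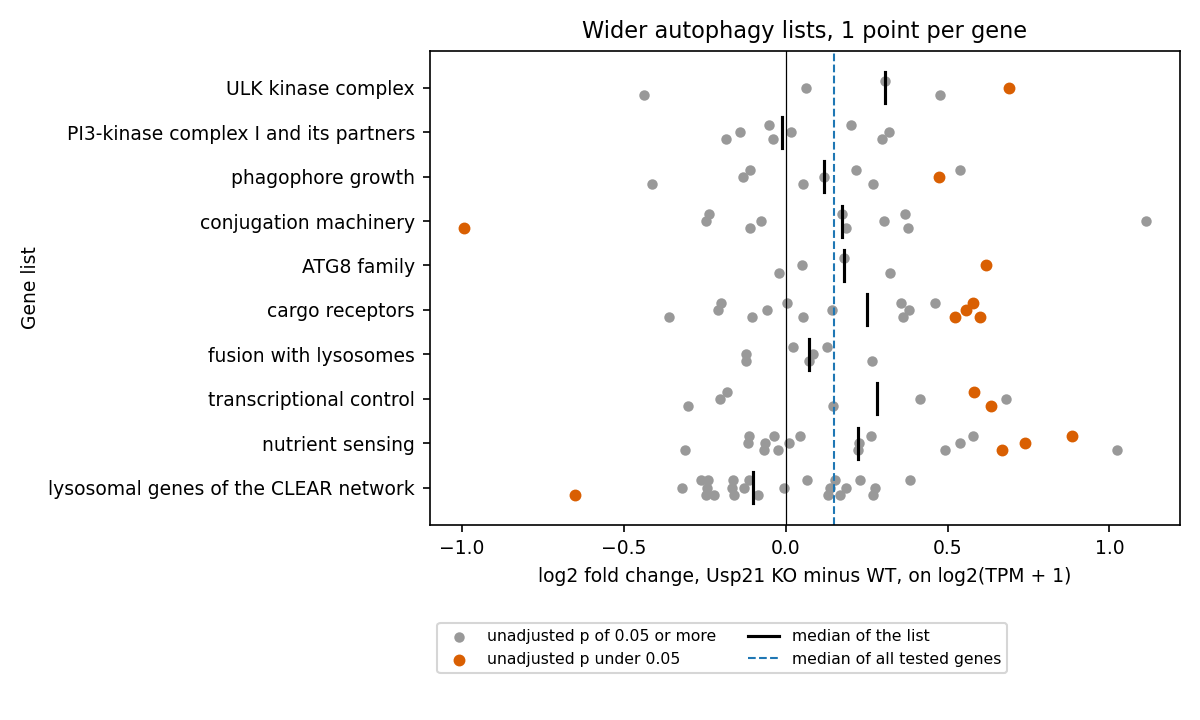
Log2 fold change (x axis, *Usp21* KO minus WT on log2(TPM + 1)) of every tested gene in 10 autophagy lists (y axis), with points in orange for an unadjusted limma p under 0.05, a black tick at the median of each list and a dashed line at 0.15, the median of all tested genes. Of the 14 orange points 12 lie to the right of 0, while the median of the lysosomal list lies to the left, at -0.10.

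Among the regulators, 2 of 8 tested transcription factor genes passed the unadjusted threshold and both were higher. Of all tested genes 8.45% were higher and 2.04% lower at that threshold. After median ratio scaling neither passed, with limma p of 0.0955 for *Tfe3* and 0.125 for *Foxo1*. *Tfe3* encodes a relative of TFEB that binds the same DNA letters, and *Foxo1* encodes the fasting factor held out of the nucleus by insulin signalling. *Tfe3* was at 5.49 and 6.33 TPM in WT and at 10.4 and 8.37 TPM in KO liver (0.58 ± 0.23, limma, unadjusted p = 0.0457). *Foxo1* was at 3.55 and 4.95 TPM in WT and at 6.47 and 7.74 TPM in KO liver (0.63 ± 0.25, limma, unadjusted p = 0.0491). The ratio of *Tfe3* to *Tfeb* was 2.21 and 2.76 in WT and 4.22 and 5.54 in KO liver, without overlap, and was not tested. Of the other ratios taken, *Gabarapl1* to *Gabarap* and *Bnip3* to *Bnip3l* also did not overlap. *Map1lc3b* to *Map1lc3a* and *Sqstm1* to *Nbr1* did. Of 19 nutrient sensing genes 3 passed, all higher, against the same 8.45% higher and 2.04% lower of all tested genes. They were *Trp53inp2*, which encodes a nuclear cofactor that also binds ATG8 proteins, and *Tsc1* and *Sesn3*, which encode negative regulators of mTORC1. *Trp53inp2* was at 22.2 and 29.0 TPM in WT and at 44.0 and 51.7 TPM in KO liver (0.88 ± 0.21, limma, unadjusted p = 0.00644, adjusted p = 0.458). It was the single gene of the 112 that stayed higher with an unadjusted p under 0.05 after median ratio scaling (0.70, limma, unadjusted p = 0.0258). *Tsc1* and *Sesn3* were between 1.05 and 1.51 TPM in WT and between 2.23 and 3.20 TPM in KO liver.

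The lysosomal genes of the CLEAR network, the set that TFEB and TFE3 drive, had a median of -0.10, against 0.15 for all tested genes. Of the 24 genes 10 were above 0 and 14 below, against 6394 above and 3187 below of all 9581. Groups did not overlap for 6 with KO higher and 7 with KO lower, against 34.4% and 10.9% of all genes. The list median was -0.28 after median ratio scaling, where that of all genes was -0.014.

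Genes that report on fasting and on the clock differed between the same libraries. *Pdk4*, a fasting-induced brake on glucose oxidation, was at 0.457 and 0.423 TPM in WT and at 1.25 and 2.69 TPM in KO liver (1.00 ± 0.33, limma, unadjusted p = 0.0264). *Cpt1a*, the gate of mitochondrial fatty acid oxidation, was at 39.9 and 32.4 against 55.9 and 49.6 TPM (0.54 ± 0.19, limma, unadjusted p = 0.0316), and the lipid droplet coat gene *Plin2* at 118.9 and 88.7 against 178.5 and 270.6 TPM (1.09 ± 0.27, limma, unadjusted p = 0.00740). These 3 of the 8 tested fasting genes were higher and 0 lower at that threshold, against 8.45% and 2.04% of all tested genes. *Ppargc1a*, the coactivator induced by fasting, was at 0.681 and 0.482 against 2.43 and 1.19 TPM (0.80 ± 0.33, limma, unadjusted p = 0.0534), and the fasting hormone gene *Fgf21* was below the filter in overlapping groups. Of 11 tested clock genes, 3 (*Arntl*, *Clock* and *Nfil3*) were higher and 5 (*Dbp*, *Tef*, *Hlf*, *Per1* and *Cry2*) lower at an unadjusted limma p under 0.05. The shares of all tested genes were again 8.45% and 2.04%. *Dbp*, a clock output gene, fell from 56.8 and 41.2 TPM in WT to 4.73 and 4.97 TPM in KO liver (-3.08 ± 0.23, limma adjusted p = 0.0193), and *Arntl*, which encodes BMAL1, was at 0.241 and 0.243 TPM in WT and at 5.89 and 4.05 TPM in KO liver (2.25 ± 0.28, limma adjusted p = 0.154). With the hour and the feeding state of collection not given, the part of daily rhythm or feeding in the *Sqstm1* and *Gabarapl1* values was not tested.

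Whole liver holds several cell types, and fewer cells of a type and less RNA per cell cannot be told apart in these libraries. The tissue label was checked with 6 hepatocyte markers, which were all present in every library, with a summed level of 57610 and 73960 TPM at the ends of the WT range and 50020 and 59910 TPM in KO liver. Summed levels of 6 Kupffer cell markers were 98.7 and 107.0 TPM in the WT libraries against 54.0 and 142.1 TPM in KO replicates 1 and 3, and those of 6 sinusoidal endothelial markers were 45.0 and 34.9 against 37.6 and 54.9 TPM. Stellate cell markers (6 genes) were higher in both KO libraries, at 54.5 and 45.5 against 84.1 and 63.4 TPM, and so were cholangiocyte markers (5 genes), at 14.6 and 15.9 against 38.0 and 24.5 TPM, most of it *Spp1*, with *Krt7* at 0 in KO replicate 3. Blood cell markers (8 genes) were lower in both KO libraries, at 869.5 and 863.0 against 814.8 and 671.2 TPM. Most of this sum was globin RNA (*Hba-a1*, *Hba-a2*, *Hbb-bs* and *Hbb-bt*). Among the other blood markers, *Ptprc*, which was under the filter, was higher, at 0.383 and 0.307 against 0.860 and 0.800 TPM. *Cd3e* and *S100a8* were lower in both KO libraries, and *Cd79a* overlapped. Of the stellate sum most was *Dcn*, at 42.6 and 34.1 against 62.8 and 48.4 TPM. At an unadjusted limma p under 0.05, 0 of 5 tested stellate genes and 1 of 2 tested cholangiocyte genes were higher, against 8.45% of all tested genes. The part of these cell types in the *Sqstm1* and *Gabarapl1* values was not tested.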

How the data were processed

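Liver RNA-seq of 2 WT and 2 *Usp21* KO mice was analysed, with samples grouped by their labels. The members and lists were chosen with earlier results of these data known. Per the labels, the submitters' processing notes name Salmon, HTSeq, edgeR, Partek and deepTools and the build mm10. Other tools, versions, the annotation release and the strand setting are not given in the sources used here. The authors deposited Salmon abundances per gene as TPM for 35739 genes, which record no depth. The authors also deposited TMM-normalized CPM of HTSeq counts for 55335 genes. Because these columns do not share a fixed total, they were treated as a signal scaled by the authors. Their values were whole multiples of 1 read in 100% of cases (within 0.02 reads), giving 102898 to 148164 reads per library. A count of 0 allows 3 reads, or 20.0 to 27.7 CPM, for counting error only. The deposited log forms of both tables were not used, and 0 per-sample columns were left unmapped.

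The study used an ANOVA in Partek. Here limma 3.58.1 (R 4.3.3, lmFit, eBayes with trend, two-sided, Benjamini-Hochberg over 9581 genes) was run on log2(TPM + 1) where the mean TPM of a gene was 1 or more, with 3.62 prior degrees of freedom. The fit was checked on simulated data, where it recovered most large changes but did not call 2-fold ones. Alternatives were pseudocounts of 0.1 and 5, other filters, upper quartile and median ratio scaling, unmoderated variances, leaving out each library, limma on the CPM, and counts recovered from it in edgeR 4.0.16 (1 of 768 genes called) and DESeq2 1.42.0 (1 of 1577 genes called). Genes named were the members, *Usp21*, the 5 ATG8 genes, 6 clock and fasting readouts (*Dbp*, *Arntl*, *Ppargc1a*, *Pdk4*, *Cpt1a*, *Fgf21*) and, in each list, those with an unadjusted p under 0.05 or else the one with the greatest fold change, except 1 that is not reported here. GENCODE M21 gave coordinates (GRCm38), and RefSeq gave promoters.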

Additional observations from a re-analysis of the deposited data

How the results depend on the processing

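No paired analysis was run, because the labels number mice within a genotype and do not link a WT mouse to a KO mouse. No member reached an adjusted p under 0.05 in limma under any alternative, nor in edgeR or DESeq2 on recovered reads. The 2 members higher at an unadjusted p became 1 with no filter, 1 after upper quartile scaling, 0 after median ratio scaling, 1 without moderated variances, 0 on CPM, 0 in edgeR and 0 in DESeq2, and 0 to 1 with a library left out. It was 0 without WT replicate 3 or KO replicate 1, and 1 without WT replicate 2 or KO replicate 3. The 0 members lower became 1 (*Bnip3*) after median ratio scaling. A 2-fold difference was reached by 0 members, and by 2 on CPM, *Gabarapl1* and *Map1lc3b*, which had no reads in WT and at most 2 reads in a KO library, under the 3 reads that a count of 0 allows, so these are not measured folds. The 3 members with KO higher and no overlap became 1 on CPM (*Gabarapl1*, with 1 read in each KO library), 0 in edgeR and 0 in DESeq2, and the 0 with KO lower became 3 and 4 after upper quartile and median ratio scaling. The sign turned for *Map1lc3a* after upper quartile (-0.044) and median ratio (-0.14) scaling. With a library left out, *Map1lc3a* ranged from -0.19 to 0.29, *Becn1* from -0.19 to 0.10, *Atg7* from -0.013 to 0.38 and *Tfeb* from -0.43 to 0.027. Of the wider lists, 12 genes higher became 6 and 1 after upper quartile and median ratio scaling, 1 on CPM, 1 in edgeR and 0 in DESeq2, and 2 to 11 with a library left out (4 without WT replicate 2, 6 without WT replicate 3, 2 without KO replicate 1). The 2 lower became 10 after median ratio scaling, 1 without moderation, and 0 on CPM, in edgeR and in DESeq2, and 0 to 2 with a library left out. The median of the wider lists, 0.078, became 0.011 after upper quartile scaling and -0.070 after median ratio scaling. It became 0.57 on CPM, 0.26 in edgeR and 0.43 in DESeq2, where few of the genes had reads. The cause was not tested, except that scaling moves all genes of a library together. The *Gabarapl1* share of ATG8 TPM was 5.03 to 12.2 points higher in KO liver with a library left out. The CPM table, with 6 of the 10 members at 0 in every library, sets the limit of what counts can show.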
